A study of Mus musculus with 12 samples.

Results

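The genes described here encode small leucine-rich proteoglycans of the extracellular matrix: decorin (Dcn), biglycan (Bgn), lumican (Lum), fibromodulin (Fmod), osteoglycin (Ogn), prolargin (Prelp) and asporin (Aspn). Their probe sets were found by symbol in the annotation of the array platform. The members and the gene lists below were chosen with earlier results of these data known. The shares over all genes given beside their counts are therefore no independent yardstick. The 7 genes had 18 of the 45101 probe sets, and all 7 were among the 11624 genes bright enough to be tested. Each gene is represented by its brightest probe set, and the dimmer probe sets of the same gene serve as a check.

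Small leucine-rich proteoglycans are short core proteins built from leucine-rich repeats, most of which carry glycosaminoglycan chains. They bind the surface of collagen fibrils and set fibril diameter and spacing, and several of them also bind growth factors such as TGF-beta. In the heart they are made mainly by fibroblasts and lie in the interstitial matrix and in the scar after injury.

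The data were 12 one-colour Affymetrix arrays of left ventricle from Balb/c mice aged 6 to 8 weeks. The 6 procedure arrays were transverse aortic constriction (TAC, which loads the ventricle with pressure) at 1 day, 1 week and 1 month, myocardial infarction (MI, coronary ligation) at 1 week and 1 month, and infusion of the vasoconstrictor peptide angiotensin II (Ang II, 2 mg/kg/day) at 1 week. The 6 controls were a sham operation for each TAC and MI array and a saline minipump for Ang II. Which sham belongs to TAC and which to MI was read from the sample titles alone. Each group was 1 array with no replicate, so a ratio in a single pair carries no test. Whether an array held 1 mouse or a pool is not given in the sources used here. The series text describes reperfusion after 30 min of occlusion and places a 1 day harvest in the MI model, whereas the array labels name a ligation and give the 1 day harvest to TAC. The array labels were followed.

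The trimmed mean signals of the arrays lay between 105 and 131 before scaling, and the number of arrays limits the precision. The ventricular light chain gene Myl2 lay between 10692 and 13464 on the 12 arrays, and the cardiac myosin gene Myh6 between 11132 and 14974. The 3' to 5' signal ratio of actin, which rises as RNA degrades, was 1.18 to 1.33. Values below are scaled signals, or log2 ratios of the procedure array to its own control. The ± after a mean log2 ratio is the standard error of limma's paired fit, over the 6 pairs unless another number is given. Adjusted p-values are Benjamini-Hochberg values over all tested genes with a threshold of 0.05.

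The first question was whether the proteoglycans changed in the mean of the 6 pairs. Bgn, Aspn and Lum rose, and Fmod, Prelp, Dcn and Ogn did not pass. The count was thus 3 of 7 members higher and 0 lower, where 5.16% of all tested genes were called higher and 5.70% lower, 10.9% in all. That is 600 genes higher and 662 lower, and 692 higher and 108 lower without scaling of the signals. Of the 7, 2 (Bgn and Aspn) were above their control in 6 of 6 pairs and 5 in at least 5, as were 8.67% and 23.0% of all genes. The median of the 7 mean log2 ratios was 0.53, against -0.0038 over all tested genes. The spread among members was wide: the mean log2 ratio was 1.66 for Fmod and -0.13 for Ogn. Leaving out single pairs changed the count to between 1 and 6, as set out gene by gene below. Bgn passed in each of the 6 fits with 1 pair left out. The calls of Aspn and Lum were lost without the pair as a block (adjusted p = 0.208 and 0.151) and without an intensity trend in the variance (adjusted p = 0.0859 and 0.0842), while Bgn kept its call in both. Without the filter on dim genes no gene passed, and Bgn had an adjusted p of 0.0615.

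**Figure D1:**
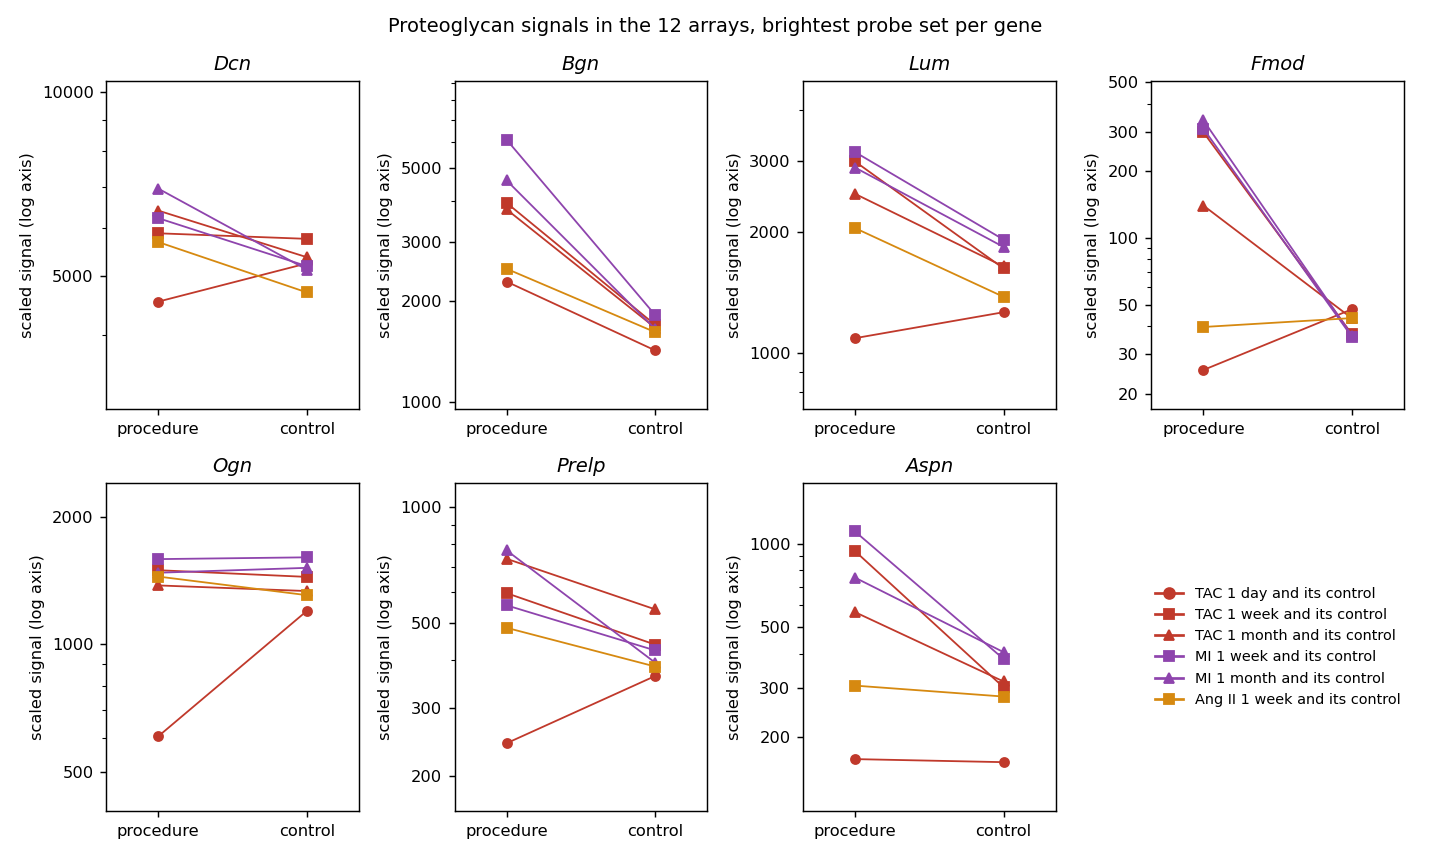
Scaled signal (log axis) of each proteoglycan in the 6 procedure arrays (left in each panel) and their 6 controls (right), with a line joining each procedure array to its own control. Bgn is higher in all 6 procedure arrays than in all 6 controls, whereas Lum, Fmod, Ogn, Prelp and Dcn each have the TAC 1 day array below its sham.

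Biglycan, which carries chondroitin or dermatan sulfate chains and whose soluble form is a ligand of Toll-like receptors, was higher in all 6 pairs. The Bgn signal (probe set 1437889_x_at) was 2290 in TAC 1 day against 1425 in its sham, 3941 in TAC 1 week against 1700, and 3768 in TAC 1 month against 1667. After MI it was 6089 at 1 week against 1819 in the sham and 4600 at 1 month against 1652. With Ang II it was 2502 against 1616 in the saline control. All 6 procedure arrays lay above all 6 controls, a separation that 1.36% of all tested genes also showed and that no other member did. Over the pairs the log2 ratio of Bgn averaged 1.15 ± 0.14 (adjusted p = 0.00329), which is 2.23-fold. The dimmer Bgn probe sets had 1.22 ± 0.14 and 1.26 ± 0.14, and all 3 of them passed. An exact two-sided sign-flip test over the 6 pairs gave p = 0.03125 for Bgn, the smallest value that 6 pairs allow. Controls of the same time, at 1 week or 1 month, differed by at most 0.17 in log2, and each of the 6 Bgn ratios was larger than that. The TAC 1 day sham has no other control of its time, and at 1425 it was the lowest Bgn control, against up to 1819.

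Promoter sequences from RefSeq (build GRCm38.p6) were matched by symbol for 5 of the 7 genes. Those of Bgn, Fmod and Aspn are shown because these genes had the largest mean log2 ratios, and that of Ogn because it lies on the same chromosome as Aspn, with only Omd between them among coding genes, and did not pass. Each run is the 250 bases before the annotated start, 5′ to 3′ on the strand of the gene: Bgn at chrX:73483351-73483600 (plus strand), Fmod at chr1:134037004-134037253 (plus), Aspn at chr13:49544193-49544442 (plus) and Ogn at chr13:49607765-49608014 (plus). Capitals mark matches on either strand to TATAAA for the TATA box, CCAAT for the CCAAT box, GGGCGG for the GC box, TGACTCA for the AP-1 element, CATTCC for the MCAT element and CAGAC for the SMAD core. Matches that touch or overlap run together.
Bgn: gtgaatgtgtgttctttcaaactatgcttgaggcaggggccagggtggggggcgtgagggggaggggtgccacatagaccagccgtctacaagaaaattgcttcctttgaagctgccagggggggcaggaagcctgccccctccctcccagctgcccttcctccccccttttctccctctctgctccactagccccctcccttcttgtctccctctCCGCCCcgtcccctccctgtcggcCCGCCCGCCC
Fmod: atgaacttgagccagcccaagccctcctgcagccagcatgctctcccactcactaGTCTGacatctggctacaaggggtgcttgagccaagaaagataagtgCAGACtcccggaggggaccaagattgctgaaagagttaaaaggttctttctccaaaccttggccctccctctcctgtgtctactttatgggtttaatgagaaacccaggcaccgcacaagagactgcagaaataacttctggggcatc
Aspn: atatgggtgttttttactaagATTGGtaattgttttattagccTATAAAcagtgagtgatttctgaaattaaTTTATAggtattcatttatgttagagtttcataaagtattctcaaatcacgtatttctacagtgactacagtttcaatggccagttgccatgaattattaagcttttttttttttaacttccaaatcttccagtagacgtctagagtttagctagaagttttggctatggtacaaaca
Ogn: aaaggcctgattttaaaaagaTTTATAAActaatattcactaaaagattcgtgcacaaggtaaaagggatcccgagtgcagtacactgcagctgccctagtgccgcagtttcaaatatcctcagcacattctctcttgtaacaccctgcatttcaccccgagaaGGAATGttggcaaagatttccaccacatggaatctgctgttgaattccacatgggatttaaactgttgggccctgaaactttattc

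The Bgn window held 3 matches to the GC box, of which the last 2 overlap, and none to the other motifs. Over all 32851 promoters of the same length, 32.7% held a GC box. The Aspn and Ogn windows each held 2 matches to TATAAA, which 12.4% of all promoters held, and in Ogn these 2 overlap on opposite strands. Relative to the annotated start, these matches began at -207 and -178 in Aspn and at -229 and -227 in Ogn. Ogn also held 1 MCAT match (12.6% of all promoters) and Aspn 1 CCAAT match (33.8%). Fmod held 2 SMAD core matches (42.2%). The Prelp window held 1 CCAAT and 1 SMAD core match. The AP-1 element, held by 4.46% of all promoters, was in none of the 5 windows. G and C made up 64.4% of the Bgn window, 51.2% of Fmod, 42.0% of Ogn, 30.0% of Aspn and 55.6% of Prelp, against a median of 52.4% over all promoters. A match describes letters in the window and shows no binding.

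Asporin, which binds TGF-beta and collagen, was high at 1 week. The Aspn signal (probe set 1416652_at) was 940 in TAC 1 week against 303 in its sham and 1107 in MI 1 week against 383. At 1 month it was 566 in TAC against 318, and 754 in MI against 406. In TAC 1 day (167 against 162) and with Ang II (307 against 280) the arrays of a pair were close together. The TAC and MI arrays at 1 week and 1 month lay above all 6 controls, and the TAC 1 day and Ang II arrays lay within the range of the controls, 162 to 406. For Aspn the log2 ratio averaged 0.84 ± 0.20 (adjusted p = 0.0316), higher in 6 of 6 pairs. The TAC 1 day ratio of 0.037 turned to -0.12 for unscaled signals, as deposited. The dimmer Aspn probe set had 0.83 ± 0.24 and did not pass (adjusted p = 0.0566), with a TAC 1 day ratio of -0.64. The Aspn call was lost when any 1 of the 4 TAC and MI pairs at 1 week and 1 month was left out (adjusted p from 0.0771 to 0.0991).

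Lumican, a keratan sulfate proteoglycan of collagen fibrils, rose by a smaller amount. The Lum signal (probe set 1423607_at) was 2987 in TAC 1 week against 1622 in its sham, 2483 in TAC 1 month against 1641, 3152 in MI 1 week against 1913, and 2886 in MI 1 month against 1834. With Ang II it was 2042 against 1380, and in TAC 1 day 1090 against 1264. The procedure arrays other than TAC 1 day were above all 6 controls, and the TAC 1 day array was below all of them. The Lum ratio averaged, in log2, 0.53 ± 0.12 (adjusted p = 0.0266), higher in 5 of 6 pairs, with an exact sign-flip p of 0.0625. Only 1 probe set represents Lum. The Lum call was lost when any 1 of those 4 pairs was left out (adjusted p from 0.0738 to 0.0884).

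Fibromodulin, which binds collagen and guides fibril growth, had the largest ratios of the family in 4 pairs but did not pass over all 6. The Fmod signal (probe set 1456084_x_at) was 298 in TAC 1 week against 37.0 in its sham, and 140 in TAC 1 month against 43.5. After MI it was 309 at 1 week against 35.9 in the sham, and 337 at 1 month against 36.4. In TAC 1 day it was 25.5 against 47.8 and with Ang II 39.8 against 43.6. The 4 TAC and MI arrays at 1 week and 1 month were above every control, the Ang II array lay within the controls, and the TAC 1 day array lay below them. Over the 6 pairs its log2 ratio averaged 1.66 ± 0.53 (adjusted p = 0.0693). It passed without the TAC 1 day pair (2.17 ± 0.42, adjusted p = 0.0137) and without the Ang II pair (2.02 ± 0.54, adjusted p = 0.0429).

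The 6 probe sets of Fmod gave different ratios. Their mean log2 ratios ran from 0.74 to 1.66, and 2 of the 5 dimmer ones passed, 1437685_x_at with a mean log2 ratio of 1.23 ± 0.26 (adjusted p = 0.0209) and 1437718_x_at at 1.40 ± 0.29 (adjusted p = 0.0199). In TAC 1 day the 6 probe sets ran from -1.36 to 0.75, in TAC 1 month from -0.0067 to 1.68, and with Ang II from -0.13 to 1.30, so the 6 did not share a direction in these pairs. In TAC 1 week they ran from 0.18 to 3.01, in MI 1 week from 1.06 to 3.10, and in MI 1 month from 1.00 to 3.21. Of the 6, 5 carry the x_at suffix, with which the maker of the array marks probes that may also bind other transcripts.

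**Figure D2:**
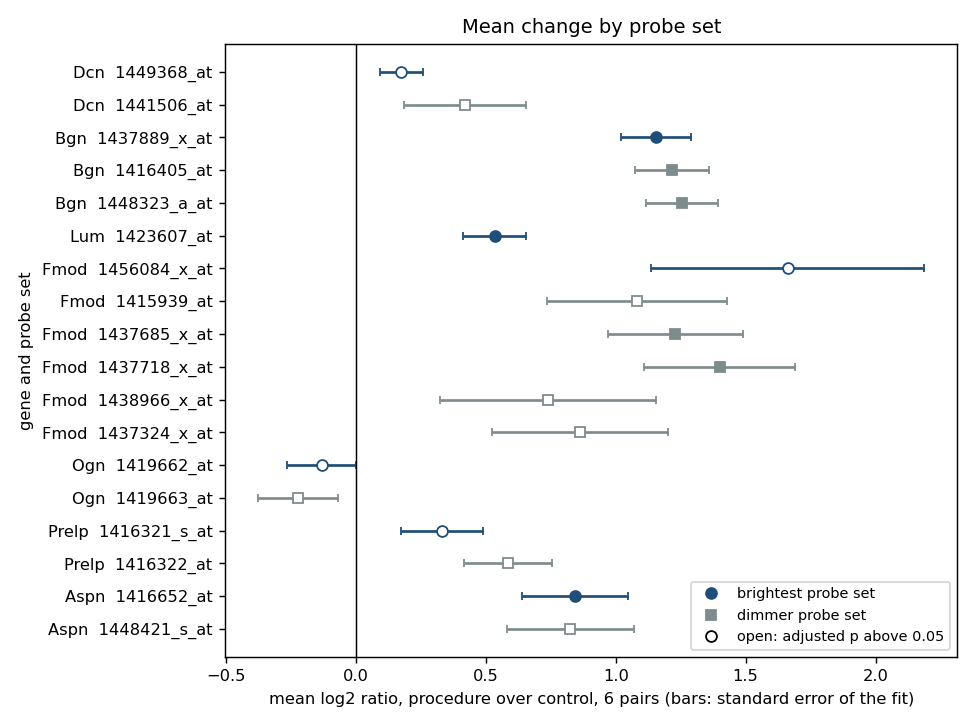
Mean log2 ratio of procedure to control over the 6 pairs for each of the 18 probe sets, with the standard error of the fit as a bar. Circles are the brightest probe set of a gene and squares the dimmer ones, and open symbols did not pass. The Bgn probe sets lie between 1.15 and 1.26 and all passed, whereas those of Fmod spread from 0.74 to 1.66.

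Decorin, a close relative of biglycan that binds collagen and TGF-beta, did not pass. The Dcn signal (probe set 1449368_at) ran from 4540 in TAC 1 day, through a median of 6047, to 6951 in MI 1 month among procedure arrays, against 4701, 5217 and 5753 for the lowest, median and highest control. Its mean log2 ratio was 0.18 ± 0.082 (adjusted p = 0.188). The 2 MI arrays, the TAC 1 week and the TAC 1 month array were above all controls, and the TAC 1 day array was below all of them. Dcn was among 152 genes with a mean signal above 5000, on a scale whose highest value was 14795, and whether the signal is compressed there was not tested. The dimmer Dcn probe set had signals from 13.8 to 49.3 and a mean log2 ratio of 0.42 ± 0.23, which did not pass. Its ratio was 0.50 in TAC 1 day and -0.15 in TAC 1 week, and the mean of both Dcn probe sets gave 0.15 and -0.061 there, so the sign in these pairs turned with the probe set. Without the TAC 1 day pair, Dcn passed at 0.25 ± 0.067 (adjusted p = 0.0415).

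Prolargin, a heparin-binding member that links basement membranes to matrix, had signals (probe set 1416321_s_at) of 597 in TAC 1 week against 439 in its sham, 734 in TAC 1 month against 542, 555 in MI 1 week against 424 and 772 in MI 1 month against 394. It was at 485 with Ang II against 385, and at 243 in TAC 1 day against 364. The TAC and MI arrays at 1 week and 1 month exceeded all controls, and TAC 1 day was below all of them. The mean log2 ratio of 0.33 ± 0.16 did not pass (adjusted p = 0.194), nor did that of the dimmer probe set, 0.59 ± 0.17 (adjusted p = 0.0543). Without the TAC 1 day pair Prelp passed at 0.52 ± 0.095 (adjusted p = 0.0121).

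Osteoglycin, also called mimecan, did not pass in any of the settings tried. The Ogn signal (probe set 1419662_at) was 607 in TAC 1 day against 1200 in its sham. In the other pairs it was 1497 against 1444 (TAC 1 week), 1379 against 1337 (TAC 1 month), 1590 against 1606 (MI 1 week), 1477 against 1517 (MI 1 month) and 1447 against 1307 (Ang II). These 5 procedure arrays lay within the range of the controls, 1200 to 1606, and TAC 1 day lay below it. The mean log2 ratio was -0.13 ± 0.13 (adjusted p = 0.554). The dimmer Ogn probe set had 336 in TAC 1 day against 778 in the sham and a mean of -0.22 ± 0.15. The Ogn ratios in MI 1 week (-0.014) and MI 1 month (-0.038) were above 0 under quantile normalization (0.070 and 0.016) and for unscaled signals (0.14 and 0.020). With the mean of both shams of a time as control they were also above 0 (0.063 and 0.053). Those in TAC at 1 week and 1 month were then below 0 (-0.024 and -0.047).

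**Figure D3:**
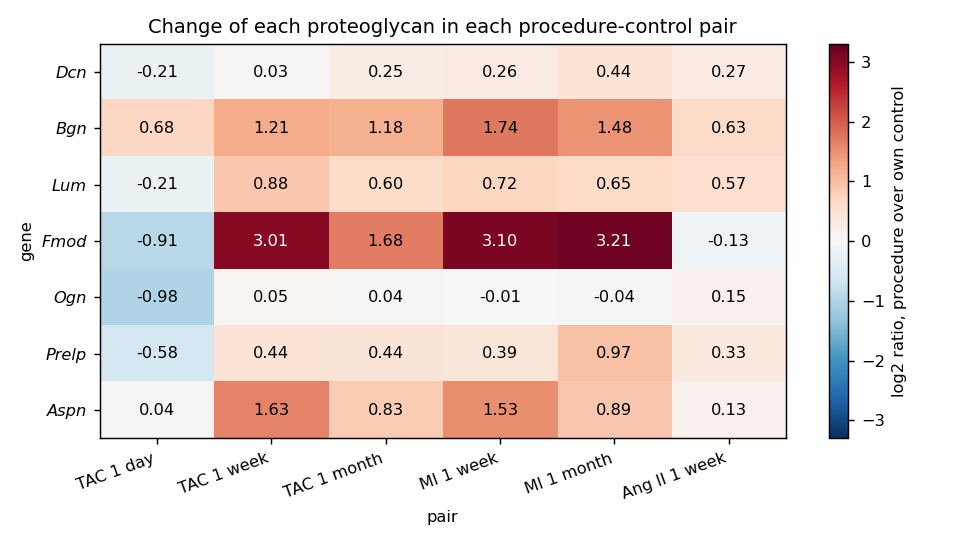
Log2 ratio of procedure to its own control for the 7 proteoglycans (rows) in the 6 pairs (columns), printed in each cell and coloured red for higher and blue for lower. TAC 1 day holds 5 of the negative ratios, and the largest ratios are those of Fmod in TAC 1 week (3.01), MI 1 week (3.10) and MI 1 month (3.21).

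Read by pair, 2 of 7 proteoglycans were above the control in TAC 1 day, 7 of 7 at both later TAC times, and 6 of 7 in both MI pairs and with Ang II. The member below in MI was Ogn. Its ratios at 1 week and 1 month (-0.038 to 0.052) were smaller than the 0.30 by which controls differed, and their signs turned with the mean of both shams as control. Averaging probe sets turned the sign of Ogn in TAC 1 month (-0.077) and Dcn in TAC 1 week (-0.061). It also turned Dcn (0.15) and Aspn (-0.30) in TAC 1 day and Fmod with Ang II (0.57). Of all tested genes, 55.1% were below the control in TAC 1 day, 50.3% and 50.4% in TAC at 1 week and 1 month, 49.2% and 49.0% in MI at those times, and 51.4% with Ang II. A ratio of at least 2-fold, with the brighter signal above the median of all arrays (25.9) and the procedure array outside the 6 controls, was reached by Bgn, Fmod and Aspn in TAC 1 week, where 2.18% of all tested genes reached it in that direction. The same 3 genes reached it in MI 1 week (6.01% of all genes). Bgn and Fmod reached it in TAC 1 month (1.91%) and MI 1 month (2.89%). None did in TAC 1 day (5.70%) or with Ang II (0.946%), and none was 2-fold lower in any pair. For 2-fold lower the share of all genes was 6.40%, 0.826% and 1.26% in TAC at 1 day, 1 week and 1 month, 1.30% and 0.619% in MI at 1 week and 1 month, and 0.774% with Ang II. Member medians were -0.21, 0.88 and 0.60 in TAC at 1 day, 1 week and 1 month, 0.72 and 0.89 in MI at 1 week and 1 month, and 0.27 with Ang II. The median of all genes lay between -0.074 and 0.0090 in these pairs. Without scaling, this all-gene median was -0.23, 0.21 and 0.31 in TAC at 1 day, 1 week and 1 month, and 0.16 in MI at 1 week.

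Over time, Aspn and Fmod had lower ratios in TAC at 1 month than at 1 week, by 0.80 and 1.33 in log2. The Aspn ratio was also lower in MI at 1 month than at 1 week, by 0.64, while that of Fmod differed by 0.10. Prelp had the reverse order in MI, with 0.97 at 1 month and 0.39 at 1 week. These are differences between single pairs and were not tested. Controls of the same time differed by up to 0.45 for Aspn, 0.28 for Fmod and 0.46 for Prelp.

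The TAC 1 day pair stood apart. Dcn, Lum, Fmod, Ogn and Prelp were below their sham there by their brightest probe set, while Bgn was above it (0.68). For Dcn and Fmod the sign was not shared by all probe sets. A fit with a separate effect for this pair, chosen after the data were seen, assumes that the lone pair varies like the other 5. The difference between TAC 1 day and the mean of the other 5 pairs passed for Ogn (-1.02 ± 0.14, adjusted p = 0.00507), Lum (-0.90 ± 0.16, adjusted p = 0.0125) and Prelp (-1.10 ± 0.23, adjusted p = 0.0274), where 5.88% of all tested genes were called and 3.80% called lower. It did not pass for Fmod (-3.08 ± 1.03, adjusted p = 0.113), Dcn (-0.46 ± 0.16, adjusted p = 0.134), Aspn (-0.97 ± 0.45, adjusted p = 0.244) or Bgn (-0.56 ± 0.31, adjusted p = 0.333). Over the other 5 pairs in this fit, 6 of 7 members rose, Ogn being the exception (0.038 ± 0.058), where 5.44% of all genes were called higher. The means were 1.25 ± 0.13 for Bgn, 1.00 ± 0.18 for Aspn and 0.68 ± 0.064 for Lum. Because the TAC 1 day pair was set apart after the member values were seen, the shares over all genes are no independent yardstick for these calls.

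**Figure D4:**
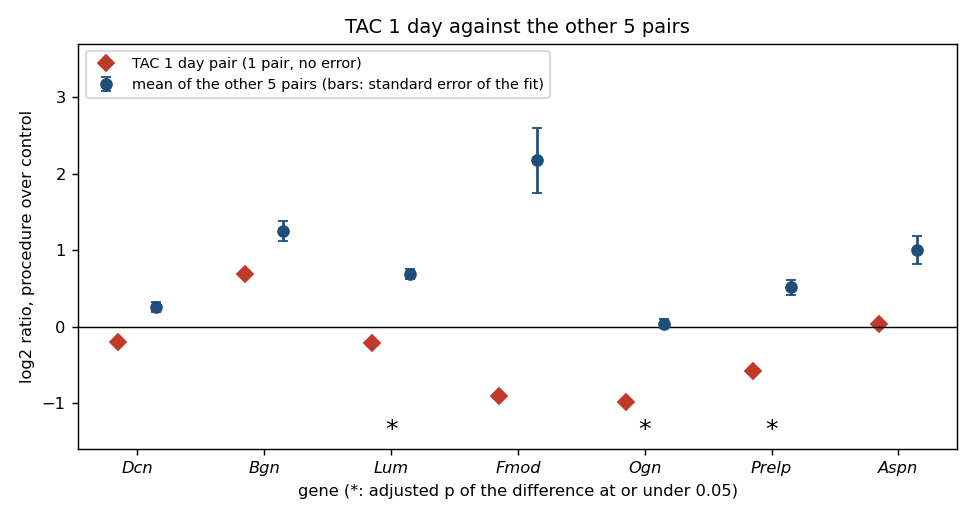
Log2 ratio of procedure to control in the TAC 1 day pair (diamonds, 1 pair) and its mean over the other 5 pairs (circles, with the standard error of the fit) for each proteoglycan. A star marks Lum, Ogn and Prelp, for which the difference between the 2 values passed in a fit chosen after the data were seen. That fit assumes that the lone pair varies like the other 5.

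Other measures of the 1 day pair are given beside these values. The sham of TAC 1 day had the lowest signal of the 6 controls for Bgn, Lum, Ogn, Prelp and Aspn. The TAC 1 day array is the only one whose deposited values carry 6 decimals. The median log2 ratio of 12 fibroblast markers was -0.13 in TAC 1 day, against 0.074 to 0.73 in the other pairs, and their summed signal was 16250 in TAC 1 day and 15837 in its sham. These markers did not share a direction in TAC 1 day, from -1.53 (Scara5) to 2.10 (Mfap5). The median of 10 activated fibroblast markers was 2.21 there. The median of 12 macrophage markers was 1.03 in TAC 1 day, within the 0.11 to 1.21 of the other pairs, and their summed signal was 7551 in TAC 1 day against 4327 in its sham. Other marker lists moved in this pair too. The endothelial median was -0.40, with a summed signal of 2920 against 3751 in the sham, and the neutrophil median was 2.92 (3 markers). The smooth muscle and pericyte median was 0.45, with a summed signal of 4616 against 5743. The part of these in the proteoglycan values was not tested. In whole ventricle, fewer cells of a type and less RNA per cell cannot be told apart.

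TAC and MI were compared as models, with 3 and 2 pairs. Bgn rose in both, by 1.02 ± 0.12 in TAC (n = 3 pairs, adjusted p = 0.0130) where 1.08% of all genes were called higher, and by 1.61 ± 0.15 in MI (n = 2 pairs, adjusted p = 0.0093) where 0.826% were. None of the other 6 passed in either model. Fmod was at 1.26 ± 0.60 in TAC and 3.16 ± 0.74 in MI, and Aspn at 0.83 ± 0.27 and 1.21 ± 0.33. The TAC minus MI difference was below 0 for all 7 members, and limma called none of them, as it called 0 of all 11624 genes (527, or 4.53%, at an unadjusted p under 0.05, of which 1 was a member, Bgn at -0.59 ± 0.19). The TAC mean includes the 1 day pair, and MI has none at that time. Without that pair the differences of Lum (0.052), Ogn (0.074) and Aspn (0.021) were above 0. The Ang II arm is a single pair, whose scatter the fit takes from the TAC and MI pairs, so its values are given without a test. Its log2 ratios were 0.63 for Bgn, 0.57 for Lum, 0.33 for Prelp and 0.27 for Dcn. They were 0.15 for Ogn, 0.13 for Aspn and -0.13 for Fmod.

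The members were set against each other in their log2 ratios, 21 comparisons with an exact two-sided sign-flip test over the 6 pairs. Bgn had a higher ratio than Dcn in 6 of 6 pairs, by 0.98 on average, and a higher ratio than Lum (0.62), Ogn (1.29) and Prelp (0.82) in 6 of 6. Ogn had a lower ratio than Lum and Prelp in all 6 pairs, Lum minus Ogn being 0.67 and Ogn minus Prelp -0.46. Each of these 6 comparisons gave an exact p = 0.03125, and none of the 21 passed after Benjamini-Hochberg adjustment (smallest adjusted p = 0.109). Dcn and Lum neighbour each other on chromosome 10, Prelp and Fmod on chromosome 1, and Aspn and Ogn lie near each other on chromosome 13, as read from the RefSeq gene order of GRCm38.p6. Among such neighbours, Aspn had a higher ratio than Ogn in 5 of 6 pairs, by 0.97 on average, Fmod a higher ratio than Prelp in 4 of 6, by 1.33, and Dcn a lower ratio than Lum in 5 of 6 (Dcn minus Lum -0.36).

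The genes most like each member in log2 level over the 12 arrays were named by Pearson's r, as a description over arrays that share series and time. For Bgn they were Ccdc80 (r = 0.98), Adcy7 (0.98) and Postn (0.98), the last a matrix protein of activated fibroblasts. For Lum they were Ptn (0.97), Col14a1 (0.96) and Gpc6 (0.95), and for Aspn Ptn (0.98), Tmem119 (0.96) and Col14a1 (0.95), so that Ptn and Col14a1 were common to both. For Fmod they were Itgbl1 (0.96), Pqlc3 (0.95) and Fbln5 (0.95), the last an elastic fibre protein. For Dcn they were Serping1 (0.94), Fbln1 (0.93) and Prkar1a (0.92), for Prelp Prkar1a (0.98), Tbx20 (0.95) and Gas1 (0.95), and for Ogn Kcp (0.97), Abca9 (0.96) and Cep350 (0.95).

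Genes of the same pathway were read from lists of partners, enzymes and relatives. Among other small leucine-rich repeat proteins of the matrix, 0 of 6 tested members passed in limma's fit (1 at an unadjusted p under 0.05), with a median of 0.25. Epyc was at 0.96 ± 0.36, Omd at 0.65 ± 0.30 and Chadl at 0.52 ± 0.30, and Kera, Optc, Podnl1, Chad and Tsku were not tested. Of the collagens these proteoglycans bind, 8 of 10 rose and 0 fell (median 1.06). Col1a1 rose by 1.82 ± 0.27, Col5a2 by 1.65 ± 0.19 and Col1a2 by 1.34 ± 0.18, each in 6 of 6 pairs. Of large and other proteoglycans, 2 of 11 rose and 0 fell: Vcan, versican, by 1.40 ± 0.20 and the syndecan Sdc1 by 1.03 ± 0.23. Sdc4 was at 0.60 ± 0.34. In all of these counts the share over all genes was 5.16% higher and 5.70% lower. In the same limma fit, 3368 of all 11624 tested genes had an unadjusted p under 0.05.

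Enzymes that build the sugar chains were counted in 3 lists. Of all tested genes, 5.16% were called higher and 5.70% lower, and 3368 of 11624 had an unadjusted p under 0.05 in limma's fit. Of chondroitin and dermatan sulfate enzymes, 4 of 15 rose and 0 fell (median 0.29). Chpf2, a chondroitin polymerising factor, rose by 0.89 ± 0.19, Dsel, an epimerase-like protein of dermatan sulfate, by 0.62 ± 0.15 and the sulfotransferase Chst12 by 0.57 ± 0.14. Only 1 of these enzymes passed without the pair as a block. None of 5 linker enzymes passed in limma's fit or had an unadjusted p under 0.05 (median -0.078), with Fam20b at -0.18 ± 0.13, B4galt7 at -0.13 ± 0.28 and B3gat3 at -0.078 ± 0.11. None of 3 keratan sulfate enzymes passed (1 at an unadjusted p under 0.05), with Chst1 at 0.34 ± 0.15, B4galt1 at 0.21 ± 0.083 and B4galt4 at -0.14 ± 0.19.

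Some proteases, ligands and receptors of these proteoglycans rose, where 5.16% of all tested genes were called higher and 5.70% lower. Of proteases that cleave them, 4 of 11 rose and 1 fell (median 0.88), and 2 passed without the block. Mmp3, stromelysin, rose by 1.23 ± 0.21 and Mmp12, an elastase of macrophages, by 2.05 ± 0.57, with Mmp12 at the floor in 3 arrays. Adamts4, an aggrecanase, was at 1.44 ± 0.59. The member that fell was Htra1, a serine protease (-0.43 ± 0.087), named after its value was seen. Among bound ligands 4 of 9 rose and 0 fell (median 0.41), with Ccn2 at 1.81 ± 0.17, Ccn4 at 1.62 ± 0.34 and Tgfb2 at 1.58 ± 0.19. Among receptors 6 of 14 rose and 0 fell (median 0.40), with the hyaluronan receptor Cd44 at 1.25 ± 0.32, Cd14 at 0.90 ± 0.21 and Tgfbr2 at 0.59 ± 0.11.

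**Figure D5:**
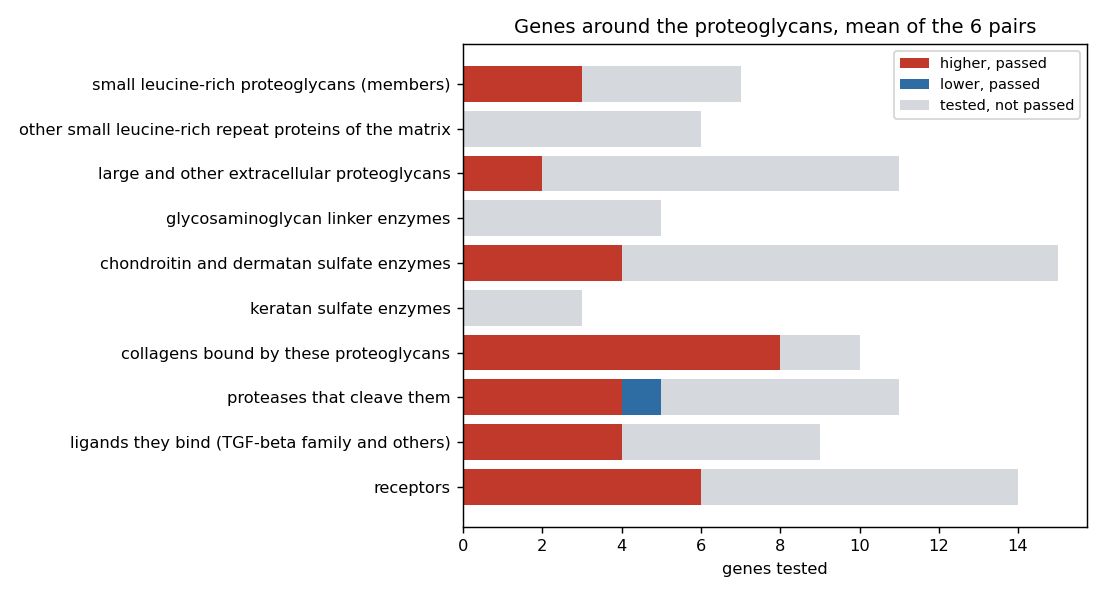
Number of tested genes in each list that passed higher (red), passed lower (blue) or did not pass (grey) in the mean of the 6 pairs. The bound collagens have 8 of 10 higher, against 3 of 7 proteoglycans and 4 of 15 chondroitin and dermatan sulfate enzymes. Of all tested genes, 5.16% passed higher and 5.70% lower.

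Cell type markers changed in the same fit, and their part in the proteoglycan values was not tested. The share over all genes was again 5.16% called higher and 5.70% lower. Of 12 fibroblast markers 4 rose and 1 fell (median 0.29), with summed signals of 16250 to 27960 in procedure arrays and 15837 to 17827 in controls. Of 10 markers of activated fibroblasts 9 rose and 0 fell (median 2.22), with sums of 6662 to 16921 against 4490 to 6451. The activated fibroblast median was 2.21 in TAC 1 day, where the proteoglycan median was -0.21. Of 12 macrophage markers 8 rose and 0 fell (median 0.67), with sums of 4379 to 15227 against 3766 to 6622. Of 9 cardiomyocyte markers 1 rose and 2 fell (median -0.17), with sums of 74417 to 89510 against 84229 to 92556. Of 8 endothelial markers 0 rose and 1 fell, and of 6 smooth muscle and pericyte markers 2 rose and 0 fell. Of the tested markers of neutrophils (3), mesothelium (3), adipocytes (2) and skeletal muscle (2), limma called 0, with 1 neutrophil marker at an unadjusted p under 0.05. Of all 11624 tested genes, 3368 had such a p in that fit. Of markers of cartilage, tendon and valve, 3 of 10 were bright enough to test, and Comp, which is also in the activated fibroblast list, rose. Acan, Col2a1, Matn1, Tnmd, Mkx, Hapln1 and Col11a1 were not. None of the 7 T and B cell markers on the array passed that filter.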

How the data were processed

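Left ventricular RNA of 12 mouse samples, with 5 µg of RNA used for labelling (labels' protocols), was measured on 1-colour Affymetrix arrays. The deposited values are a linear signal intensity per probe set. The submitters' processing notes name GCOS, and the sources used here do not give the signal algorithm or scaling. The members and gene lists were chosen with earlier results of these data known.

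Arrays were scaled to a common trimmed mean (2% from each end, factors from 0.872 to 1.09), raised to a floor at the 20th percentile (4.54) and taken to log2. Of 45101 probe sets, 34958 had exactly 1 gene symbol. Genes were represented by their brightest probe set and tested when its mean log2 exceeded the 40th percentile (18.1 as a signal) over named probe sets, which left 11624.

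Models were fitted with limma 3.58.1 in R 4.3.3, with the pair as a block and an intensity trend. The code was run on simulated data with noise capped at that of the median gene, no pair effects and equal changes in every pair. Such data are quieter than these arrays, so the run does not show how the fit performs here. The residual degrees of freedom were 5 for the mean of the pairs and 3 for separate models. Pairs join each procedure array to the control whose title names the same series and time. Deviations of paired arrays from their group means correlated at 0.149 to 0.286, in each pair more than with any other control. The p-values reflect the scatter of these arrays alone, some of it possibly technical. Named genes were the 7 members, the 3 largest mean changes per list and the 3 most correlated genes per member. Alternatives were other scalings, floors and probe sets, no filter, no trend, no block and each pair left out. Promoters were read with Python 3.11.15.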

Additional observations from a re-analysis of the deposited data

Results flagged for a closer look

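Several members had a ratio of opposite sign in TAC 1 day, a lone pair, and in all pairs of 1 week, 1 month or both. These were Dcn (-0.21 in TAC 1 day, with later times of both kinds positive by the brightest probe set), Lum (-0.21, likewise), Prelp (-0.58, likewise) and Fmod (-0.91, with both 1 month pairs positive). For Dcn the mean of both probe sets gave 0.15 in TAC 1 day and -0.061 in TAC 1 week, the reverse signs, and the 6 Fmod probe sets ran from -1.36 to 0.75 in TAC 1 day. The difference between TAC 1 day and the mean of the other 5 pairs passed for Lum (-0.90), Ogn (-1.02) and Prelp (-1.10), and not for Dcn (-0.46, adjusted p = 0.134) or Fmod (-3.08, adjusted p = 0.113), in limma's fit with a separate effect for that pair. That fit was chosen after the data were seen and assumes that the lone pair varies like the other 5. Fmod was at -0.13 in the lone Ang II pair and positive in both MI pairs, and Ogn was at 0.15 with Ang II and slightly negative in both MI pairs. The sign of Ogn in the MI pairs turned with the scaling and with the choice of sham. These differences between Ang II and MI, and the opposite signs of TAC 1 day and the 1 week or 1 month pairs taken alone, were not tested.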

How the results depend on the processing

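The count of members past the threshold was 3 with signals as deposited, after quantile normalization, with the floor at the 10th or 40th percentile and with log2(signal + 16). Averaging the probe sets of a gene gave 2, Aspn being lost. Without the filter on dim genes limma called 0 members and 0 of all genes (3703 at an unadjusted p under 0.05). Without the intensity trend it called 1 member, and with no replicate block, so that the pairs were not used, also 1, in both cases Bgn. With 1 pair left out the count ran from 1 to 6, and it was 6 with a separate effect for the TAC 1 day pair, a setting chosen after seeing the data. Over all genes the paired fit called 1262, against 800 with signals as deposited, 694 with averaged probe sets, 241 without the trend, 473 with no replicate block, and 256 to 1485 with 1 pair left out. Leaving out a pair also removes a degree of freedom.

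The mean log2 ratio of Bgn lay between 1.15 and 1.25 over the 9 alternatives that keep all pairs and passed in 8 of them (adjusted p = 0.0615 without the filter). With 1 pair left out the mean ratio of Ogn ran from -0.19 to 0.038, the positive value without TAC 1 day and also with a separate effect for it. With 1 pair left out, the TAC minus MI difference ran from -0.50 to 0.052 for Lum, from -0.44 to 0.074 for Ogn and from -0.78 to 0.021 for Aspn, in each case above 0 only without TAC 1 day. With no replicate block it was -0.59 for Lum, -0.51 for Ogn and -1.03 for Aspn. The cause was not tested. The counts of TAC minus MI calls were 0 in all alternatives run. Taking the mean of both shams of a time as control changed no TAC or MI ratio by more than controls of that time differed, which its construction implies. It turned the sign of each Ogn ratio at 1 week and 1 month. These became -0.024 and -0.047 in TAC and 0.063 and 0.053 in MI. With log2(signal + 16) the Fmod ratio was 2.57 in TAC 1 week and 2.65 in MI 1 week. The Fmod controls, at 35.9 to 47.8, lay close to the all-array median signal of 25.9. No detection calls were used, so how far such signals stand above background is unknown.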
